A study of Homo sapiens with 14 samples.

Results

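The nuclear-encoded subunits of the mitochondrial respiratory chain and ATP synthase were examined in MDA-MB-231 cells with and without silencing of DAP5. The genes were taken by symbol: NDUFA, NDUFB, NDUFC, NDUFS and NDUFV followed by a number (complex I), SDHA to SDHD (complex II), every symbol beginning with UQCR (complex III), with COX4, COX5, COX6, COX7 or COX8 (complex IV), or with ATP5 (complex V). Pseudogene symbols ending in P and a number, 96 in all, were left out. This gave 87 of the 58434 symbols in the count table: 37 for complex I, 4 for complex II, 9 for complex III, 17 for complex IV and 20 for complex V. The ATP5 symbols are older names. ATP5A1 and ATP5B, for example, are now ATP5F1A and ATP5F1B. The symbols also took in ATP5S, ATP5SL, UQCRHL (a copy of UQCRH) and the read-through ATP5J2-PTCD1, which are not structural subunits in their own right. They were kept, since the choice was by symbol alone. The complex was also assigned by symbol alone and not by structure, so that NDUFA4, for instance, is counted under complex I by its name.

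MDA-MB-231, an established line of human breast cancer cells, lacks the oestrogen and progesterone receptors and HER2 amplification. The cells carried a doxycycline-inducible short hairpin RNA, either non-silencing (MB-231-shNSi) or directed against DAP5 (MB-231-shDAP5), were sorted for the red fluorescent protein expressed with the hairpin, and all received 1 µg/ml doxycycline for 6 days. DAP5, encoded by EIF4G2, is a relative of the initiation factor eIF4G that lacks the binding site for the cap-binding protein eIF4E. For 2 cultures of each line, total mRNA and the mRNA of light and heavy polysome pools from a sucrose gradient were sequenced, and for the shNSi cultures also a moderate pool, giving 14 libraries. Light polysomes carry few ribosomes per mRNA and heavy polysomes carry many. Each line is a stably transduced pool of 1 parental cell line, and nothing in the labels says that a culture of one line was handled with a particular culture of the other. In the labels, the light libraries of shDAP5 have the code that marks the moderate pool of shNSi, and those of shDAP5 total mRNA have total polysome in the title and the code of total mRNA. The former were read as light and the latter as total mRNA.

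The respiratory chain passes electrons from NADH (complex I) and succinate (complex II) through complex III to oxygen at complex IV, and pumps protons whose return through complex V drives the synthesis of ATP. A small catalytic core in each of complexes I, III, IV and V is joined by many accessory subunits, most of which are small proteins. The mitochondrial genome encodes part of the core, and all other subunits are translated in the cytosol and imported. The mitochondrially encoded subunits were not analysed here. An mRNA with a short coding sequence has room for fewer ribosomes than an mRNA with a long one, so the length of the coding sequence is given beside the values. Of the 87 genes, 79 passed a filter on low counts, and these 79 had a median coding length of 411 nt, against 1407 nt for all genes tested for heavy translation efficiency. The shortest reading frames show how little room there is. Those of the shortest tested gene of complexes I, III, IV and V are printed from the GENCODE v29 transcripts (GRCh38), with the start and stop codons in capitals.
NDUFA1: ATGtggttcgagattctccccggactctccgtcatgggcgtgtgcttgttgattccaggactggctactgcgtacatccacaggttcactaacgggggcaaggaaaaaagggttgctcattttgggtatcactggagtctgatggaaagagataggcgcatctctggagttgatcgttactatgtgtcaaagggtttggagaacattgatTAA
UQCR11: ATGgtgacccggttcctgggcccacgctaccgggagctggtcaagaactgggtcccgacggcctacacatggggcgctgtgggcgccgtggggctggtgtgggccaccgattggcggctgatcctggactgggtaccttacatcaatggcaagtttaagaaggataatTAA
COX7C: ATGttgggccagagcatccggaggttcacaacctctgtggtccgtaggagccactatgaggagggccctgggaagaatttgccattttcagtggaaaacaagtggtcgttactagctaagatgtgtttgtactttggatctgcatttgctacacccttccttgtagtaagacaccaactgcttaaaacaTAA
ATP5E: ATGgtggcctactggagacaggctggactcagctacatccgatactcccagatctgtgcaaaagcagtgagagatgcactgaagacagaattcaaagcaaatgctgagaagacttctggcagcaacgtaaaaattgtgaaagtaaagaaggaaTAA

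These frames are 213 nt (NDUFA1), 171 nt (UQCR11), 192 nt (COX7C) and 156 nt (ATP5E) long with the stop codon. NDUFA1, an accessory subunit of complex I, lies at chrX:119871487-119876662 on the plus strand. UQCR11, the smallest subunit of complex III, lies at chr19:1597172-1605490 on the minus strand. COX7C, an accessory subunit of complex IV, lies at chr5:86617904-86620962 on the plus strand, and ATP5E, the epsilon subunit of the ATP synthase rotor, lies at chr20:59025467-59032382 on the minus strand. The shortest frame of complex II, that of SDHD, is 480 nt long. At the other end stand the catalytic or redox-centre subunits NDUFS1, with 2181 nt of coding sequence without the stop codon, SDHA with 1992 nt, ATP5A1 with 1659 nt and ATP5B with 1587 nt.

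Each library held between 25899838 and 30795910 counts. Pearson's r between the log2 levels of replicate libraries was between 0.967 and 0.989 over 16235 genes, which are not independent replicates. EIF4G2 in total mRNA was at 1392 and 1359 CPM (counts relative to library size after TMM scaling) in the shNSi cultures and at 526 and 730 CPM in the shDAP5 cultures, a log2 change of −1.11 (standard error 0.18, adjusted p = 0.0172). Without shDAP5 culture 1 that change was −0.90 and did not pass the threshold. Where a culture is left out, its line keeps 1 culture, which is assumed to vary like those of the other line. The epithelial and mesenchymal genes of this line, KRT18 and VIM, were at or above 503 and 3960 CPM in total mRNA. ESR1 was at or below 0.385 CPM, PGR had no counts and the leukocyte gene PTPRC did not exceed 0.105 CPM. CDH1, listed with ESR1 and PGR as low or absent, did not exceed 0.245 CPM. ERBB2, the gene of HER2 and on the same list, was not low, at 41.6 to 67.4 CPM in total mRNA. In bulk libraries of this kind, fewer cells with an mRNA and less of it per cell cannot be told apart. For any gene taken by itself, the smallest two-sided p of an exact permutation test with pairs of cultures is 0.333. The tests therefore used edgeR's quasi-likelihood fit across all genes with Benjamini-Hochberg adjustment, and called a gene at an adjusted p under 0.05.

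In total mRNA, none of the 79 respiratory chain genes tested was called between the lines by edgeR, where 0.354% of all 14992 genes were. At an unadjusted p under 0.05 there were 4, namely SDHA, NDUFC1, COX7B and NDUFA2. Their median log2 change was 0.08, against 0.01 over all genes, and 54 were positive. The lowest adjusted p was that of SDHA, the flavoprotein subunit of succinate dehydrogenase. SDHA was at 102 and 132 CPM in the shNSi cultures and at 73.4 and 67.0 CPM in the shDAP5 cultures, a log2 change of −0.70 (standard error 0.19, adjusted p = 0.113). The groups did not overlap. DESeq2 called SDHA as lower (adjusted p = 0.0457), as did edgeR with no filter on low counts (adjusted p = 0.0124) and without shNSi culture 1 (adjusted p = 0.0217), where 1.31%, 1.62% and 2.12% of all genes were lower. Together the 87 genes held 1.18% and 1.19% of all counts in shNSi total mRNA and 1.38% and 1.18% in shDAP5 total mRNA.

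The pools of the shNSi gradient show where these mRNAs lay in cells with the non-silencing hairpin. In the shNSi cultures 61 of the 79 genes were lower in heavy than in light polysomes, 11 were higher and 7 were not called. Over all genes 30.5% were lower and 34.7% higher. The median log2 difference was −1.79 for the respiratory chain and −0.03 over all genes. Of the 12 tested genes of complex IV, 12 were lower in heavy polysomes, as were 30 of 37 in complex I, 6 of 9 in complex III, 12 of 17 in complex V and 1 of 4 in complex II. COX7C was at 848 and 601 CPM in light, 305 and 233 CPM in moderate and 116 and 125 CPM in heavy polysomes of the shNSi cultures. ATP5E was at 972 and 508 CPM in light, 221 and 155 CPM in moderate and 109 and 105 CPM in heavy polysomes. Both fell stepwise from light to heavy in each culture.

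Among the 11 genes that were higher in heavy polysomes were NDUFS1, NDUFA10, NDUFV1, NDUFA9, SDHA, UQCRC1, UQCRC2, ATP5A1, ATP5B and ATP5C1. All 10 tested genes with a coding sequence of at least 1000 nt are among the 11, as is ATP5C1 (891 nt). ATP5B, the catalytic beta subunit of ATP synthase, was at 230 and 496 CPM in light, 597 and 1370 CPM in moderate and 2663 and 2894 CPM in heavy polysomes of the shNSi cultures. ATP5A1, the alpha subunit that forms the same hexamer, was at 84.4 and 168 CPM in light, 129 and 399 CPM in moderate and 918 and 1261 CPM in heavy polysomes. These subunits of the same enzyme as ATP5E therefore stood at the opposite end of the gradient. Across the 79 genes the log2 level in heavy polysomes over total mRNA rose with coding length in the shNSi cultures (Spearman's rho 0.86, a description over genes, which are not independent and share libraries), against 0.63 over 12937 genes with a known coding length.

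**Figure D1:**
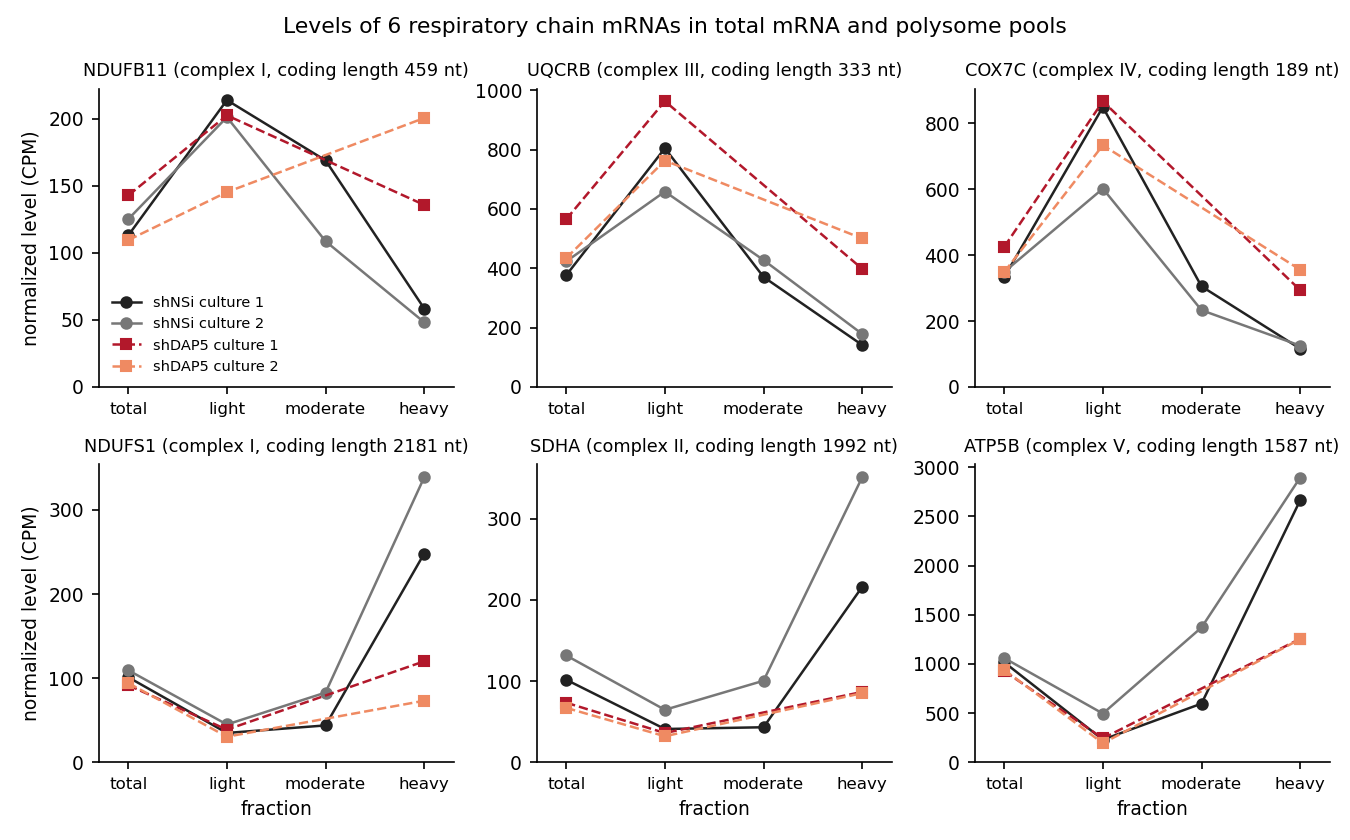
Normalized level (CPM, linear axes from 0) of 6 respiratory chain mRNAs in total mRNA and in the light, moderate and heavy polysome pools, with circles and solid lines for the shNSi cultures and squares and dashed lines for the shDAP5 cultures, which have no moderate pool. In the upper row, short mRNAs such as COX7C fell from light to heavy in the shNSi cultures (116 and 125 CPM in heavy) and stood higher in shDAP5 heavy polysomes (294 and 355 CPM). In the lower row, long mRNAs such as ATP5B were highest in shNSi heavy polysomes (2663 and 2894 CPM) and lower there in shDAP5 cells (1256 and 1252 CPM).

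In the moderate pool of the shNSi cultures, 54 of the 79 genes were higher than in heavy polysomes and 7 were lower, against 13.1% and 24.1% over all genes, with a median log2 difference of 0.96. Without shNSi culture 1 these counts were 27 and 3, against 4.14% and 13.3% over all genes. In heavy polysomes over total mRNA, 46 of the 79 were lower and 10 higher in the shNSi cultures, against 14.3% and 26.5% over all genes, with a median of −0.96. Without shNSi culture 2 they were 31 and 6, against 7.32% and 4.98%. NDUFA9 was not among the 10 higher genes.

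Silencing of DAP5 was compared in heavy polysomes, where 77 of the 87 genes could be tested. Of these, 54 were higher in shDAP5 cells, 5 were lower and 18 were not called, whereas 14.2% of 14270 genes were higher and 16.7% lower. The median log2 change was 1.21, against 0.09 over all genes. Higher were 27 of 36 genes of complex I, 1 of 4 of complex II, 6 of 9 of complex III, 9 of 11 of complex IV and 11 of 17 of complex V. NDUFS1, SDHA, ATP5A1 and ATP5B were among the 5 lower genes. Without shDAP5 culture 2 the calls in both directions were lost, as were nearly all calls over all genes. The median log2 change of the respiratory chain was then 0.94. The 87 genes held 0.807% and 0.790% of all counts in shNSi heavy polysomes and 1.16% and 1.33% in shDAP5 heavy polysomes, and the ranges did not overlap.

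Translation efficiency sets the heavy polysome level against total mRNA of the same culture, and its change is the difference of that log2 ratio between the lines. All 79 genes that passed the filter were tested. In shDAP5 cells it was higher for 48 and lower for 2, with 29 not called, against 4.85% higher and 8.23% lower over 15374 genes. With limma on quantile-normalized values 29 were higher and none lower, against 1.57% and 1.09% over all genes. The median log2 change was 1.11, against 0.09 over all genes. When libraries were scaled by their size alone, the median of all genes moved up by 0.21 and no gene was called. Relative to all genes, the median of the respiratory chain was 1.02 under each of the 3 scalings. A change of scaling shifts all genes by about the same amount, so this value could hardly differ and is no test of the calls. The log2 ratio was above both shNSi cultures in both shDAP5 cultures for 63 of the 79 genes and below both for 9, against 25.7% and 32.2% of 16235 genes, and for 7 the groups overlapped. The number of calls rested on single cultures. It fell without shNSi culture 1 and rose without shDAP5 culture 1. Without shNSi culture 2 or shDAP5 culture 2 no call was left, and few were left over all genes. With a culture left out, the median log2 change of the respiratory chain was between 0.74 and 1.54.

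**Figure D2:**
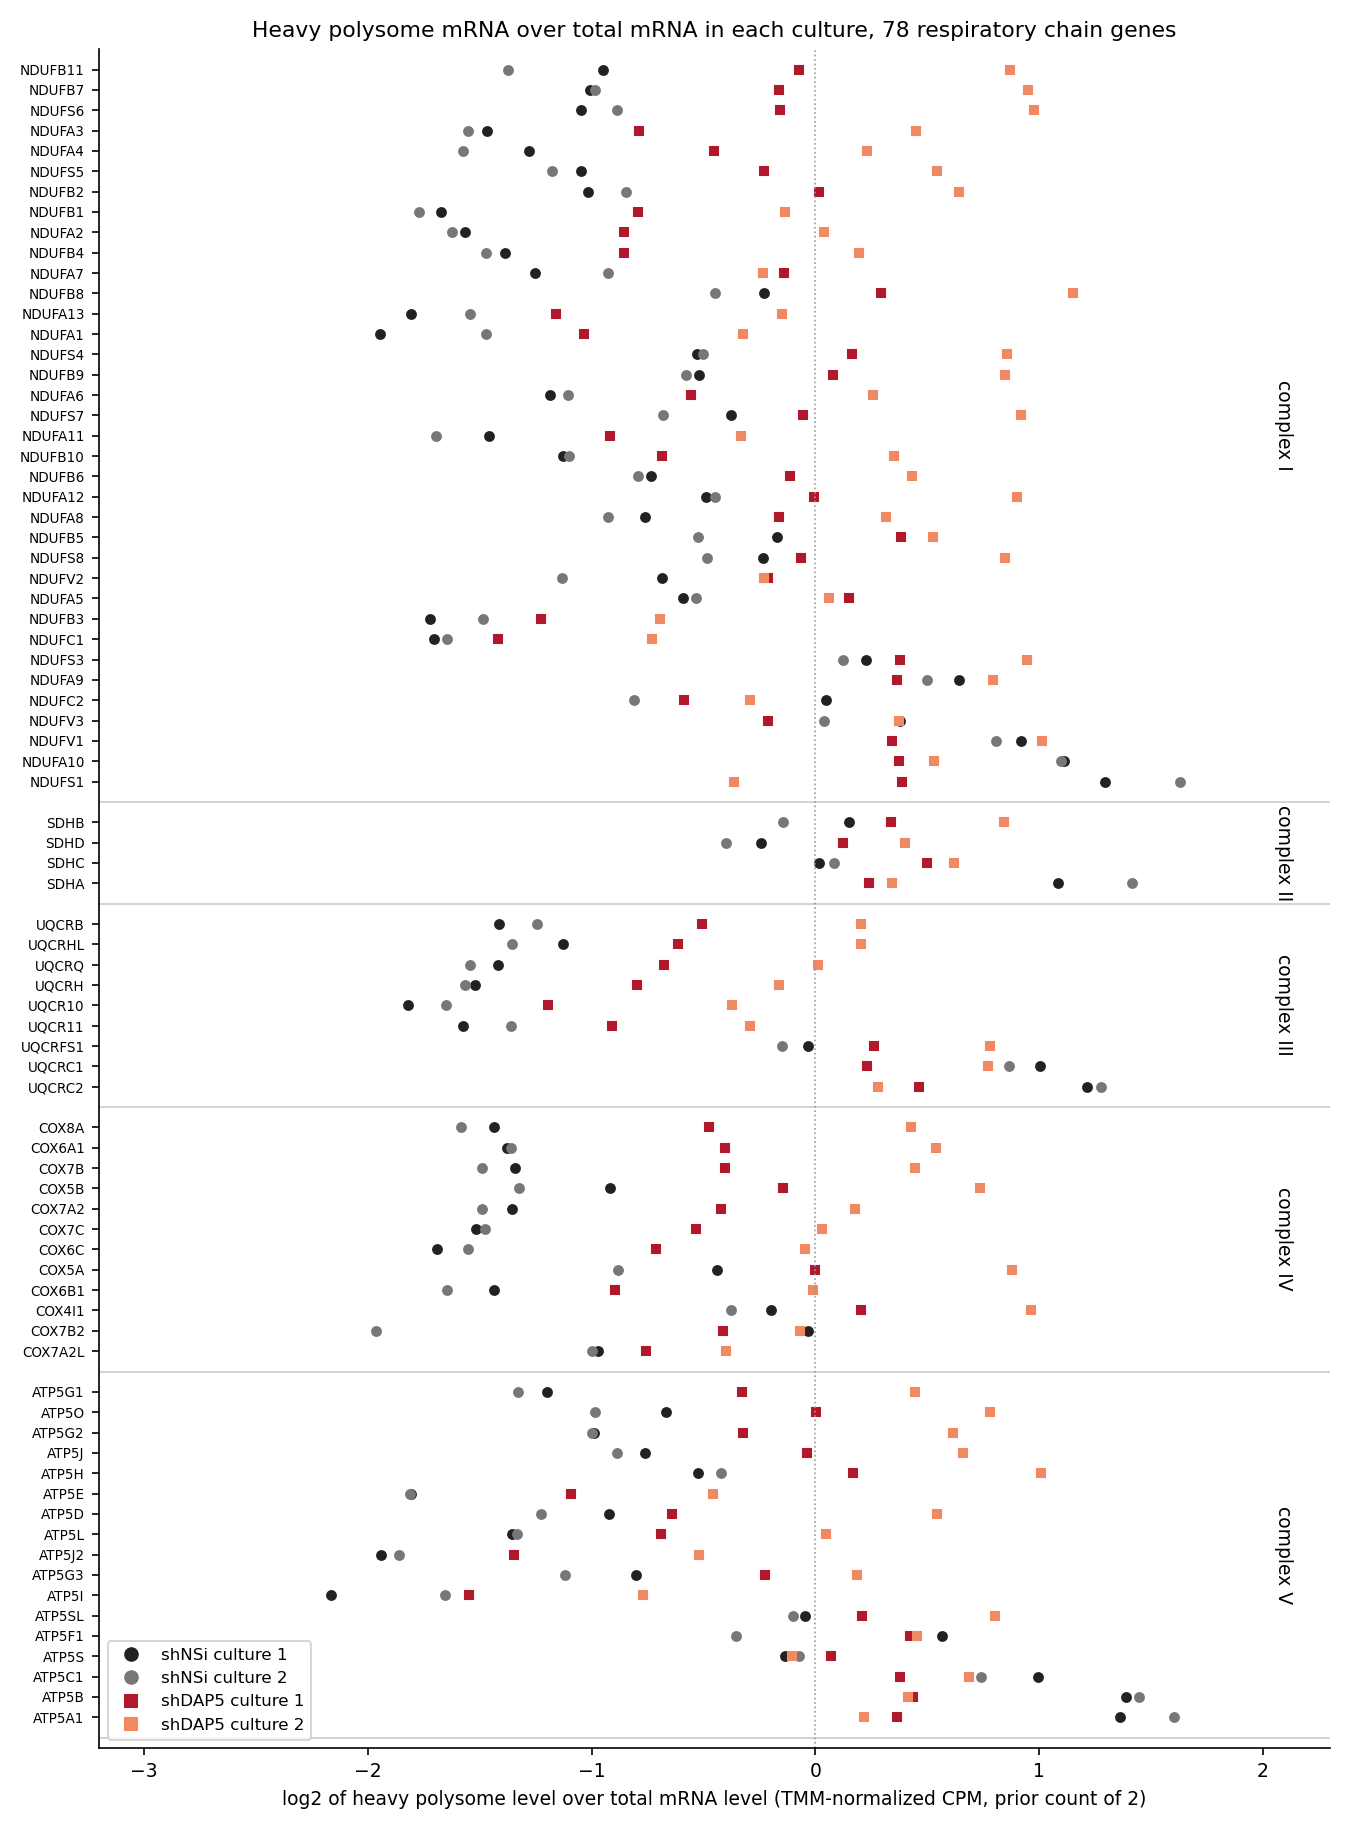
Log2 of the heavy polysome level over the total mRNA level (CPM scaled by TMM, prior count of 2) in each culture for 78 of the 79 genes tested, ordered within each complex by the change in heavy translation efficiency, with circles for shNSi and squares for shDAP5 cultures. For 63 genes both shDAP5 cultures lie to the right of both shNSi cultures, and shDAP5 culture 2 (median 0.38) lies further right than shDAP5 culture 1 (median −0.16) for most genes.

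In single cultures the median log2 ratio of heavy polysomes to total mRNA over the 79 genes was −0.92 and −0.99 in the shNSi cultures and −0.16 and 0.38 in the shDAP5 cultures. The shDAP5 cultures lay further apart than the shNSi cultures, and both lay above them.

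Complex I, the NADH dehydrogenase, is the largest complex of the chain. Of the 37 genes with its symbols 23 had a higher and 1 a lower heavy translation efficiency in shDAP5 cells. Over all genes 4.85% were higher and 8.23% lower. The median log2 change of the 37 genes was 1.10, against 0.09 over all genes. NDUFB11, an accessory subunit of the membrane arm, had the highest change. It was at 58.5 and 48.2 CPM in heavy polysomes of the shNSi cultures and at 136 and 200.5 CPM in those of the shDAP5 cultures, with 113, 125, 143 and 109 CPM in total mRNA in the same order of cultures. The heavy levels did not overlap and the total levels did. Its log2 change in heavy translation efficiency was 1.71 (standard error 0.35, adjusted p = 0.00601). NDUFS5, the complex I gene with the most counts in total mRNA, had 90.4 and 86.4 CPM in shNSi and 196 and 264 CPM in shDAP5 heavy polysomes, a change in efficiency of 1.42 (standard error 0.35, adjusted p = 0.00950). NDUFA1, whose frame is printed above, had 45.2 and 52.4 CPM in shNSi and 109 and 132 CPM in shDAP5 heavy polysomes, a change of 1.18 (adjusted p = 0.0227).

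The core subunits of complex I that carry the flavin or iron-sulphur clusters did not all change in the same direction. NDUFS7, with 639 nt of coding sequence, was at 58.2 and 50.7 CPM in shNSi and at 79.3 and 128 CPM in shDAP5 heavy polysomes, and its efficiency rose (1.11, standard error 0.35, adjusted p = 0.0311). NDUFS8, with 630 nt, and NDUFV2, with 747 nt, had changes of 0.90 (adjusted p = 0.0764) and 0.84 (adjusted p = 0.239). NDUFS1, which holds several of the clusters, was at 248 and 339 CPM in shNSi heavy polysomes and at 120 and 73.2 CPM in those of shDAP5, with 101, 109, 91.7 and 94.2 CPM in total mRNA. The heavy levels did not overlap, and the change in efficiency was −1.30 (standard error 0.34, adjusted p = 0.0133). NDUFV1, which binds NADH and the flavin, had 279 and 301 CPM in shNSi and 190 and 277 CPM in shDAP5 heavy polysomes and a change of −0.04 (standard error 0.34, adjusted p = 0.953). For NDUFA10, an accessory subunit, the change was −0.51 (adjusted p = 0.305). NDUFS1, NDUFV1 and NDUFA10 have coding lengths of 2181, 1392 and 1065 nt.

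Complex II, succinate dehydrogenase, has its 4 subunits encoded in the nucleus. None was called in heavy translation efficiency by edgeR (3 at an unadjusted p under 0.05), where 4.85% of all genes were higher and 8.23% lower. SDHA was at 216 and 351 CPM in shNSi and at 86.7 and 85.2 CPM in shDAP5 heavy polysomes. The groups did not overlap and the level in heavy polysomes fell, with a log2 change of −1.53 (standard error 0.35, adjusted p = 0.000275), whereas the change in efficiency was −0.81 (standard error 0.33, adjusted p = 0.0926). SDHB, the iron-sulphur subunit, was at 143 and 128 CPM in shNSi and at 160 and 214 CPM in shDAP5 heavy polysomes, with a change in efficiency of 0.73 (standard error 0.34, adjusted p = 0.134). SDHC and SDHD, the membrane anchors, had changes of 0.65 and 0.73. In heavy polysomes SDHD was higher (log2 change 0.84, adjusted p = 0.0404).

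In complex III, the cytochrome bc1 complex, 5 of the 9 genes had a higher heavy translation efficiency and none a lower one. Over all genes 4.85% were higher and 8.23% lower. The median change of the 9 genes was 1.10. UQCRB, a small subunit near the ubiquinone site, had the highest change and the most counts of the complex. It was at 141 and 179 CPM in shNSi and at 398 and 500.3 CPM in shDAP5 heavy polysomes, a change in efficiency of 1.32 (standard error 0.36, adjusted p = 0.0154). UQCRFS1, the Rieske iron-sulphur protein, was at 154 and 140 CPM in shNSi and at 218 and 287 CPM in shDAP5 heavy polysomes. Its level there was higher by a log2 change of 0.97 (adjusted p = 0.0241), while the change in efficiency of 0.76 (standard error 0.34) did not pass (adjusted p = 0.122). The large core proteins UQCRC1 and UQCRC2 had changes of −0.29 (adjusted p = 0.608) and −0.73 (adjusted p = 0.131). UQCRC2 was at 270 and 284 CPM in shNSi and at 158 and 146 CPM in shDAP5 heavy polysomes, without overlap, and UQCRC1 at 269 and 343 CPM and at 153 and 209 CPM.

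In complex IV, cytochrome c oxidase, 10 of the 12 genes tested had a higher heavy translation efficiency and none a lower one. Over all genes 4.85% were higher and 8.23% lower, and the median change in complex IV was 1.39. Its catalytic subunits are encoded in mitochondria, so these genes encode accessory subunits, and none of those tested has a coding sequence longer than 507 nt. COX8A had the highest change. It was at 114 and 92.3 CPM in shNSi and at 238 and 402 CPM in shDAP5 heavy polysomes, a change in efficiency of 1.63 (standard error 0.36, adjusted p = 0.00750). COX5B rose from 59.0 and 47.6 CPM to 124 and 184 CPM (1.56, standard error 0.35, adjusted p = 0.00750). COX7C, with the most counts in total mRNA, rose from 116 and 125 CPM to 294 and 355 CPM (1.39, standard error 0.35, adjusted p = 0.0104). COX4I1, an early-assembling subunit, was at 218 and 215 CPM in shNSi and at 271 and 408 CPM in shDAP5 heavy polysomes, with a change in efficiency of 1.02 (standard error 0.35, adjusted p = 0.0467) and a change in heavy level of 0.83 that did not pass (adjusted p = 0.0590).

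Several subunits of complex IV exist as a common form and a form restricted to certain tissues. The muscle forms COX6A2 and COX7A1, the lung form COX4I2 and the testis form COX8C had no counts in any library, which allows up to 3 counts in each, and COX6B2, another testis form, had at most 10. The common forms were all tested. COX6A1 and COX6B1 rose with changes in efficiency of 1.58 (adjusted p = 0.00750) and 1.23 (adjusted p = 0.0190). COX7A2 rose from 56.7 and 51.3 CPM in shNSi to 118 and 161 CPM in shDAP5 heavy polysomes (1.45, standard error 0.34, adjusted p = 0.00824). COX7A2L, a relative of COX7A2 that joins complexes III and IV in supercomplexes, had the lowest change of complex IV, 0.55 (standard error 0.33, adjusted p = 0.264), with 76.0 and 70.2 CPM in shNSi and 86.0 and 95.3 CPM in shDAP5 heavy polysomes. The 342 nt of COX7A2L differ little from the 345 nt of COX7A2. The difference between these genes was not tested. COX7B rose with a change of 1.58 (adjusted p = 0.00750), and its level in heavy polysomes had the highest log2 change of all 77 genes tested there, 2.03 (adjusted p = 2.23e-06). Its testis form COX7B2 was at 1.25 CPM or below in every library, and its change in efficiency was 0.70 with a standard error of 1.14.

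In complex V, ATP synthase, 10 of the 17 genes tested had a higher and 1 a lower heavy translation efficiency. Over all genes 4.85% were higher and 8.23% lower. The median change of the 17 genes was 1.12. The c subunit that forms the rotor ring is encoded by ATP5G1, ATP5G2 and ATP5G3, which make the same mature protein. ATP5G1 had the highest change of the complex. It was at 84.3 and 73.2 CPM in shNSi and at 133 and 224 CPM in shDAP5 heavy polysomes (1.47, standard error 0.35, adjusted p = 0.00824). ATP5G2 rose from 137 and 139 CPM to 258 and 415 CPM (1.28, standard error 0.36, adjusted p = 0.0174), and ATP5G3 from 139 and 117 CPM to 226 and 276 CPM (1.09, standard error 0.34, adjusted p = 0.0307). Differences among the 3 genes were not tested. ATP5E, the shortest of all, rose from 109 and 105 CPM to 242 and 299 CPM (1.18, adjusted p = 0.0239).

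The subunits of the catalytic head of the same enzyme were not among those that rose. ATP5A1 was at 918 and 1261 CPM in shNSi and at 472 and 396 CPM in shDAP5 heavy polysomes, with 357, 415, 366 and 341 CPM in total mRNA. Its heavy levels did not overlap, and its efficiency fell, with a log2 change of −1.05 (standard error 0.36, adjusted p = 0.0452). Without shNSi culture 2 that value was −0.92 (adjusted p = 0.618), and without shDAP5 culture 2 it was −1.01 (adjusted p = 0.160). ATP5B, with the most counts of complex V, was at 2663 and 2894 CPM in shNSi and at 1256 and 1252 CPM in shDAP5 heavy polysomes. The heavy level fell by 0.96 on the log2 scale (adjusted p = 0.0435), while the change in efficiency was −0.85 (standard error 0.38, adjusted p = 0.124). ATP5C1, the gamma subunit of the central stalk, had a change of −0.19 (adjusted p = 0.758).

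The change followed the length of the coding sequence. Of the 58 genes with less than 600 nt, 46 had a higher efficiency and none a lower one, with a median log2 change of 1.19. Of the 11 genes with 600 to under 1000 nt, 2 were higher and the median was 0.73. Of the 10 genes with 1000 nt or more, none was higher, 2 were lower and the median was −0.76. Other genes showed the same order. Among 1517 other genes under 600 nt the median change was 0.82 and 29.3% were higher, among 2337 of 600 to under 1000 nt it was 0.50 and 6.33% were higher, and among 8735 of 1000 nt or more it was −0.31 and 14.2% were lower. Spearman's rho between change and coding length was −0.59 over the 79 genes and −0.71 over 12668 genes, given as a description, since all points share the same libraries.

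**Figure D3:**
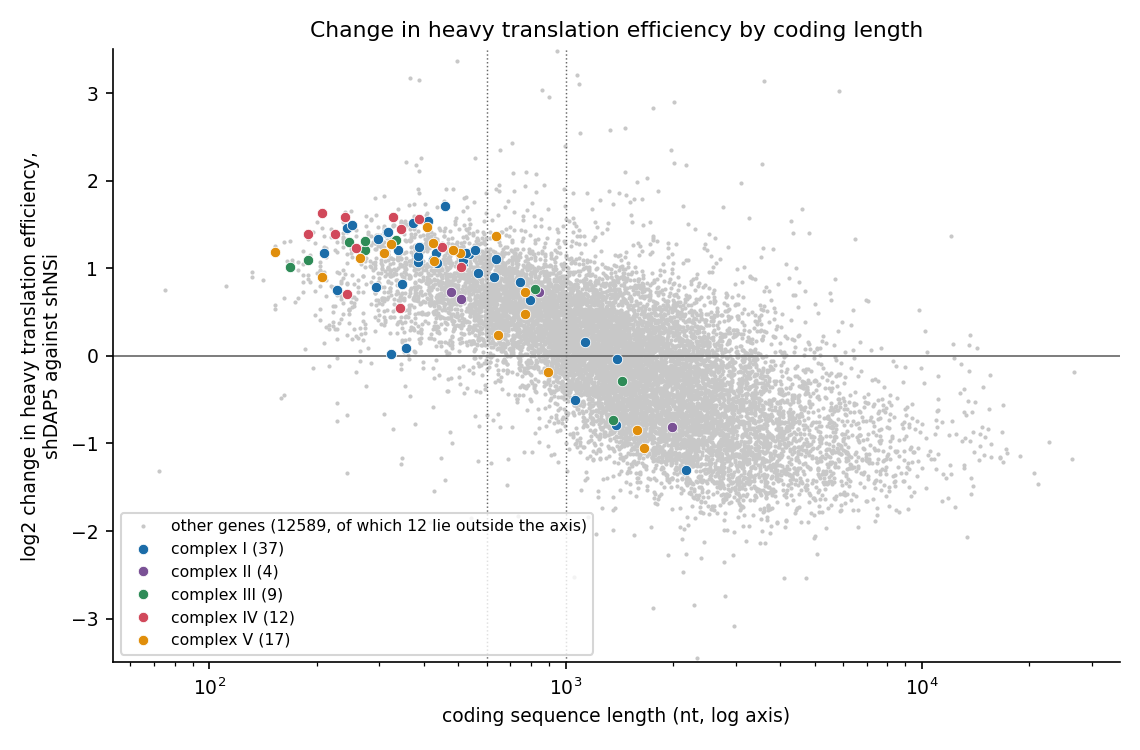
Log2 change in heavy translation efficiency (shDAP5 against shNSi) against coding sequence length (nt, log axis), with respiratory chain genes coloured by complex and 12577 other genes in grey (12 more lie beyond the vertical axis), and dotted lines at 600 and 1000 nt. Short respiratory chain genes lie mostly above 0 (median 1.19 under 600 nt) and long ones mostly below (median −0.76 at 1000 nt or more).

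When a smooth function of coding length was fitted in each library and used as an offset, none of the 79 genes was called in heavy translation efficiency by edgeR (19 at an unadjusted p under 0.05), where 1.33% of 12668 genes were higher and 1.62% lower. The median log2 change was 0.27, against 0.01 over all genes. In heavy polysomes with the same offsets 2 genes were higher (COX7B and NDUFB11) and 5 lower (NDUFS1, NDUFV3, NDUFC2 and SDHA among them) of 77, against 4.89% and 6.53% over all genes, with a median of 0.28. NDUFV3 and NDUFC2 were lower only relative to genes of their coding length. Without the offsets their heavy log2 changes were 0.18 and 0.12, and neither was called.

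The heavy pools were also set against the shNSi moderate pool. With the moderate pool as the shNSi control, none of the 79 genes was called in heavy translation efficiency by edgeR (2 at an unadjusted p under 0.05), where 0 of 15434 genes, or 0%, were called, and the median log2 change was −0.09. In polysome level none of 78 genes was called (0 at an unadjusted p under 0.05), against 0.344% over all genes, with a median of −0.01. The mean log2 level in shDAP5 heavy polysomes lay nearest the shNSi moderate pool for 63 of the 79 genes, nearest the light pool for 10 and nearest the heavy pool for 6. Over all 16235 genes the moderate pool was nearest for 53.1%. COX7C, at 294 and 355 CPM in shDAP5 heavy polysomes, compares with 305 and 233 CPM in shNSi moderate and 116 and 125 CPM in shNSi heavy polysomes. ATP5B, at 1256 and 1252 CPM, lay within the range of the shNSi moderate cultures, 597 and 1370 CPM. When each shNSi culture's heavy and moderate counts were summed for the control, none was called in level by edgeR (14 at an unadjusted p under 0.05), against 0.553% higher and 2.22% lower over all genes, and none in efficiency (7 at an unadjusted p under 0.05), where 0% of 15386 genes were called. The medians were 0.38 and 0.39. Whether the heavy pools of both lines were cut at the same place in the gradient was not tested.

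**Figure D4:**
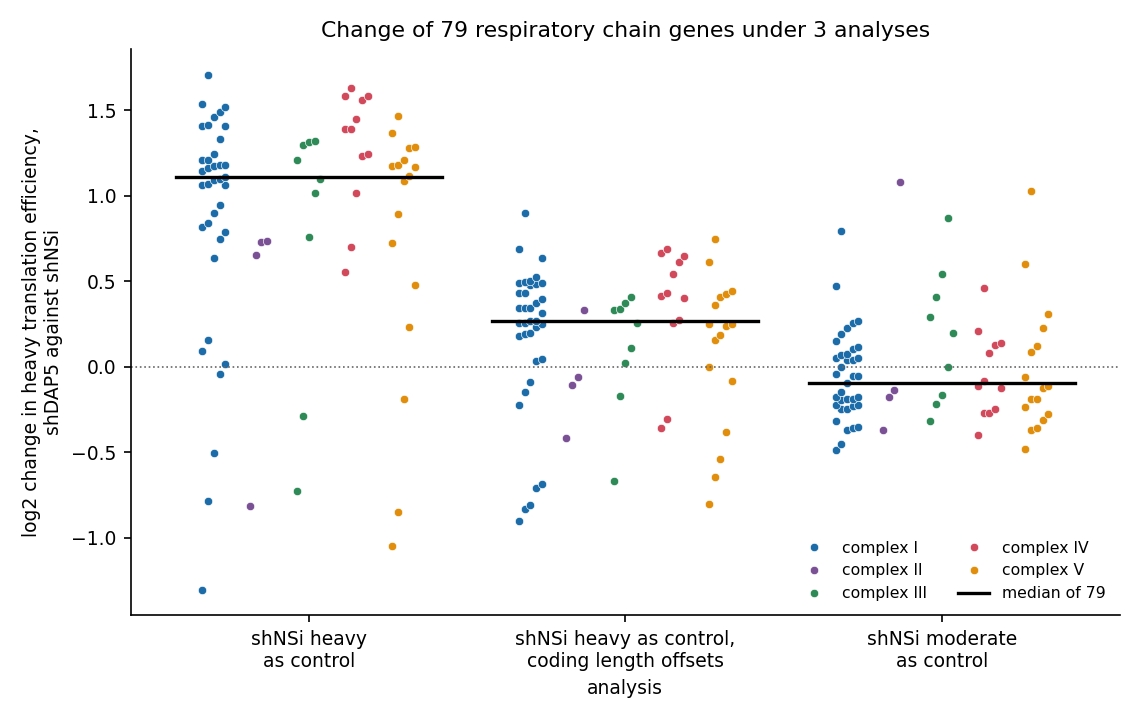
Log2 change in heavy translation efficiency (shDAP5 against shNSi) of the 79 genes, coloured by complex, with shNSi heavy polysomes as the control, with the same control and offsets for coding length, and with the shNSi moderate pool as the control, where each point is a gene and the black line the median. The medians are 1.11, 0.27 and −0.09.

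In light polysomes none of the 79 genes was called between the lines by edgeR (4 at an unadjusted p under 0.05, among 15529 genes of which 0% were called), and the median log2 change was −0.21, against −0.01 over all genes. In light translation efficiency none was called either (11 at an unadjusted p under 0.05, among 15967 genes of which 0% were called), with a median of −0.18. COX7C was at 848 and 601 CPM in shNSi and at 866 and 733 CPM in shDAP5 light polysomes, and NDUFS1 at 34.9 and 45.0 CPM and at 38.9 and 30.5 CPM, and both pairs of ranges overlapped. Without shNSi culture 1, which leaves the spread to be taken from the shDAP5 cultures, 7 of 80 genes were higher and 21 lower in light polysomes, against 12.6% and 16.3% over all genes. In light translation efficiency 5 of 79 were then higher and 19 lower, against 4.82% and 7.51%. Without shNSi culture 2, NDUFB9, SDHC and COX7B2 were lower in light polysomes, 3 of 79 genes against 3.05% over all genes, and NDUFB9 also in light translation efficiency, against 0.0844%. Against the shNSi moderate pool, whose code the shDAP5 light libraries carry, 24 genes were higher and 15 lower, where 12.6% and 13% of all genes were, with a median of 0.26. The mean level in shDAP5 light polysomes lay nearest the shNSi light pool for 62 of the 79 genes and nearest the moderate pool for 9, against 72.1% and 16.4% of all genes.

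Within the shDAP5 cultures, 35 of the 79 genes were lower and 20 higher in heavy than in light polysomes, against 22.6% and 24.6% over all genes, with a median log2 difference of −0.42. Without shDAP5 culture 1 the counts were 13 and 19 (9.54% and 10.2% over all genes), and without shDAP5 culture 2 they were 27 and 9 (9.02% and 10.4%). In heavy polysomes over total mRNA none was called in the shDAP5 cultures by edgeR (21 at an unadjusted p under 0.05), where 0% of all genes were higher and 0.326% lower, and the median was 0.10. DESeq2 called ATP5I, ATP5J2, NDUFB3 and NDUFC1 lower there, where it called 0.979% of all genes lower. The ratio still rose with coding length over the 79 genes (Spearman's rho 0.72, a description), while over 12937 genes rho was −0.11. The difference between the lines in heavy against light polysomes, tested as an interaction, was higher in shDAP5 cells for 40 genes and lower for 2, NDUFS1 and SDHA, against 4.7% and 12.4% over all genes, with a median of 1.11. NDUFB11 had a log2 difference of heavy from light of −1.97 in shNSi and −0.03 in shDAP5 cells, and the difference between them was 1.93 (adjusted p = 0.00455). Without shNSi culture 2 or shDAP5 culture 2 no gene was called in this interaction (63 and 22 at an unadjusted p under 0.05).

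Reads of some of these genes can be shared with others. Of the 79 tested genes 16 share exon bases on the same strand with another gene of GENCODE v29, and 10 share at least 30% of them. NDUFV2, with 82.9% shared, was at 1.85 to 2.82 CPM in total mRNA, NDUFA7, with 75.9%, at 0.315 to 0.693 CPM, and NDUFA13, with 44.1%, at 11.4 to 14.9 CPM. NDUFB8 shares 71.7%, ATP5O 70.3%, NDUFA11 67.0%, ATP5J2 46.2%, COX8A 34.5%, UQCR11 31.2% and COX6A1 30.6%. The values of these 10 genes are uncertain, since the handling of shared reads is not stated. The 96 pseudogene symbols left out held at most 0.0819% of the counts of the genes and pseudogenes together in any library, and 5 of them passed the filter. The 8 genes that did not pass were COX4I2, COX6A2, COX7A1, COX8C and ATP5J2LP, with no counts in any library, and COX6B2, ATP5J2-PTCD1 and ATP5L2, with at most 10, 7 and 2.

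Proteins that serve the same pathway were examined as lists. Assembly factors, which insert cofactors or join subunits and are not in the final complexes, had 12 of 50 genes with a higher heavy translation efficiency and none with a lower one, against 4.85% and 8.23% over all genes, and a median of 0.68. SDHAF1, an assembly factor of complex II with a coding length of 345 nt, had a change of 1.52 (adjusted p = 0.00849), and UQCC2, of complex III, with 378 nt, had a change of 1.48 (adjusted p = 0.00824). Among 15 electron carriers and further subunits outside the symbols used here, 1 was higher, against 4.85% over all genes, namely NDUFAB1, the acyl carrier protein that is also a subunit of complex I, with 468 nt and a change of 1.33 (adjusted p = 0.0112). Of 16 enzymes of the citric acid cycle, which feeds the chain with NADH and succinate, none was higher and 2 were lower, against 8.23% over all genes, namely OGDH with 3069 nt (−1.21, adjusted p = 0.0175) and DLAT of the pyruvate dehydrogenase complex with 1941 nt (−1.12, adjusted p = 0.0255). Of 10 regulators of mitochondrial gene expression none was called by edgeR (4 at an unadjusted p under 0.05). The median coding lengths of these lists were 552, 981, 1328 and 1316 nt in the same order. None of their genes was called in total mRNA by edgeR (2 at an unadjusted p under 0.05, both enzymes of the citric acid cycle).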

How the data were processed

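RNA sequencing was examined in 14 libraries of MDA-MB-231 cells, grouped by GEO's titles. The authors deposited whole-number read counts per gene symbol, without normalization. The submitters' processing notes name STAR 2.6.0a, hg19 and limma, and the deposited table's name gives featureCounts as the counting tool and a tag, rev, that may refer to strand. The tool's version, its annotation and its settings for strand and shared reads are not given in the sources used here. Coding lengths and positions came from GENCODE v29 (GRCh38), to which 37582 of the 58434 symbols matched by name and 589 through RefSeq synonyms, while 27 symbols had been turned into dates. Each library held at least 25899838 counts. The study describes its replicates as independently performed, whereas the labels do not say which cultures of the lines belong together.

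In R 4.3.3, counts were filtered with filterByExpr and scaled by TMM, and edgeR 4.0.16 gave quasi-likelihood tests, adjusted over all genes tested (Benjamini-Hochberg, threshold 0.05). Each fraction was fitted by itself, translation efficiency as the interaction of line and fraction over 8 libraries with a term for each culture, and fractions within a line over all 14 libraries. CPM used all 14 libraries and log2 ratios a prior count of 2. Length offsets were splines with 6 degrees of freedom. Scripts were tested on simulated data.

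Alternatives were DESeq2 1.42.0, library size, limma 3.58.1 on quantile-normalized log2(CPM + 1), no filter, a minimum of 10 counts throughout, a replicate block, other control pools, length offsets and each culture left out. The crossed block, the interaction of line with heavy against light and the length groups were chosen after seeing the data, and the members and lists with earlier results of these data known. Genes named were core subunits, isoform groups, those with the lowest and highest change in heavy translation efficiency and the most counts in each complex, those opposite in sign to the median and those that did not pass the filter. Others, chosen after their values were seen, are named where a count was small or for their length, overlap or role. A gene counted among the members is not reported here by itself.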

Additional observations from a re-analysis of the deposited data

Results flagged for a closer look

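The difference between heavy and light polysomes was not the same in the 2 lines for 42 of the 79 respiratory chain genes, 40 of them higher and 2 lower in shDAP5 than in shNSi cells by the interaction of line and fraction in edgeR, against 4.7% and 12.4% over all genes. Without shNSi culture 2 or shDAP5 culture 2 no gene was called, either among these or over all genes. COX5B, for instance, had a log2 difference of heavy from light of −1.98 in shNSi and −0.01 in shDAP5 cells (difference 1.98, adjusted p = 0.00398), and NDUFS1 of 2.87 and 1.46 (difference −1.41, adjusted p = 0.0126). Without a term for each culture 16 genes were called, all higher, against 0.696% higher and 2.7% lower over all genes. The shDAP5 light libraries carry the code of a moderate pool, and its part in this result was not tested.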

How the results depend on the processing

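Of the values recomputed under an alternative, 412 kept their direction and side of the threshold (or stayed within the spread), 133 fell below the threshold or by over 1.5 times in count, 23 rose above it, 17 medians moved beyond the spread between cultures and 37 changed sign. Where no construction is named, the cause was not tested. Genes called in total mRNA numbered 1 with DESeq2, 1 with no filter and 0 to 1 with a culture left out. EIF4G2 in total mRNA was −1.07 by library size and −1.08 by limma, neither past the threshold, and −1.37 to −0.90 with a culture left out. Heavy polysome calls numbered 0 against the shNSi moderate pool (median −0.0084), 0 against the summed pools, 7 with length offsets, and 0 to 52 with a culture left out. Light polysome calls numbered 39 against the moderate pool (median 0.26) and 0 to 28 with a culture left out, and light translation efficiency calls 39 and 0 to 24. Heavy translation efficiency calls numbered 0 by library size (64 at an unadjusted p under 0.05), 29 by limma, 0 against the moderate pool (median −0.095), 0 against the summed pools, 0 with length offsets, and 0 to 58 with a culture left out. Within lines and with a culture left out, calls numbered 30 to 66 in shNSi moderate against heavy polysomes, 37 to 52 in shNSi heavy polysomes over total mRNA, 32 to 53 in shDAP5 heavy against light polysomes and 0 to 3 in shDAP5 heavy polysomes over total mRNA. The last was 4 with DESeq2, 4 by library size and 4 with no filter. The interaction of line with heavy against light gave 16 without the replicate block (for comparisons within a line, the term for each culture) and 0 to 36 with a culture left out.

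Against the moderate pool, the change in heavy translation efficiency was positive for 32 of the 79 genes, against 69 with the heavy pool as control. Among the genes named by the rule it turned positive for SDHA (1.08), NDUFS1 (0.79), NDUFV1 (0.23), UQCRC1 (0.20), ATP5A1 (1.03), ATP5B (0.60), UQCRC2 (0.54) and NDUFA10 (0.27). It turned negative for SDHB (−0.14), UQCRFS1 (−0.32), COX4I1 (−0.27), COX5B (−0.085), COX7A2 (−0.25), COX7A2L (−0.11), COX7B (−0.12), COX7B2 (−0.40), ATP5G2 (−0.059), ATP5G3 (−0.19), NDUFS5 (−0.25) and UQCRB (−0.17). Against the summed pools SDHA was 0.026, NDUFV1 0.20 and UQCRC1 0.042. With length offsets NDUFV1 was 0.043, COX7A2L −0.36 and COX7B2 −0.30. By library size NDUFV1 was 0.17 and ATP5C1 0.024, by limma they were 0.24 and 0.024, and with at least 10 counts NDUFV1 was 0.0097. With a culture left out COX7B2 was −0.16 to 2.69, NDUFV1 −0.41 to 0.32 and UQCRC1 −0.59 to 0.010.

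Between the lines, with a replicate block that pairs cultures by their number, 17 genes were called in heavy translation efficiency (all higher, against 1.1% higher and 3.38% lower over all genes), and it changed no other call count between the lines by over 1.5 times. Same-numbered cultures deviated from their group means with a correlation of −0.17 over genes in heavy translation efficiency and −0.09 to 0.05 in the others, so they share only a number. With the pairing crossed 64 genes were called (58 higher and 6 lower, against 11.4% and 15.4% over all genes).

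COX7B2, NDUFA7, NDUFV2 and UQCRHL had few counts at this depth, so counting error bears more on their values, and NDUFV2 and NDUFA7 also share most of their exon bases with other genes.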
